A study of Mus musculus with 6 samples.

Results

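Replication-coupled chromatin assembly factors place histones on newly copied DNA. The group was defined by name as 8 genes: the CAF-1 subunits Chaf1a and Chaf1b, the H3-H4 chaperones Asf1a and Asf1b, the histone reservoir protein Nasp, the histone mRNA binder Slbp, and the histone-binding proteins Rbbp4 and Rbbp7. Its members were all probe sets whose platform annotation gives exactly one of these symbols. This rule found 13 of the 22626 non-control probe sets, which belong to 7 of the 12393 genes with a symbol. Chaf1a, the large subunit of CAF-1, had no probe set with that symbol in the annotation and was not analysed here.

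The arrays measured total RNA of hepatocytes that flow cytometry had sorted by DNA content, read from a live Hoechst stain. The tetraploid fraction, with a duplicated chromosome complement, and the diploid fraction were each represented by 3 Affymetrix arrays. All cells came from liver of wild-type C57BL/6 mice aged 3 weeks under standard housing, with no treatment, and were taken for RNA straight after sorting. Separate animals behind the biological replicates are not stated in the labels, and p-values then cover only the spread between the 6 samples, part of which may be technical. The fractions were set by DNA content alone, so the labels do not tell where cells in S phase or diploid cells in G2 fell.

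When DNA is copied, nucleosomes ahead of the fork are taken apart and rebuilt behind it from old and new histones. New H3-H4 dimers are held by Nasp, passed to Asf1, and given to CAF-1, which the sliding clamp tethers to the fork. Slbp binds the stem-loop at the end of replication-dependent histone mRNAs, which lack a poly(A) tail, and is needed for their processing and translation in S phase. Rbbp4 is the small subunit of CAF-1, and both Rbbp4 and Rbbp7 also serve in histone acetylation, deacetylation and Polycomb complexes that act outside S phase. In growing liver, hepatocytes cycle and part of them become polyploid.

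Alb, the albumin gene, which marks hepatocytes, was among the brightest probe sets on the arrays, at intensities between 47550 and 49030 on the 6 arrays. Array medians ran from 85.9 to 88.7, and pairs of arrays correlated at a Pearson r of 0.992 to 0.997 over probe sets. Diploid replicate 1 had the lowest array weight in limma, at 0.62 against 0.945 to 1.31 for the other arrays. Of 10 endothelial markers, 8 had a higher mean in the tetraploid fraction. An unadjusted limma p under 0.05 was reached by 4 of these 8, where 1.84% of all genes were higher at that p. The summed intensity of the 10 endothelial markers was 1180 to 1376 on tetraploid arrays and 1051 to 1188 on diploid arrays. The sum of 12 hepatocyte markers was 332200 to 350000 on tetraploid arrays and 331000 to 349100 on diploid arrays. Summed lymphocyte markers were at 202 to 216 on tetraploid arrays and 228 to 238 on diploid arrays, with 6 of 7 markers lower on average. Summed cholangiocyte markers were at 169 to 175 on tetraploid arrays and 175 to 197 on diploid arrays, with 4 of 5 lower. Summed macrophage markers were at 414 to 489 on tetraploid arrays and 460 to 516 on diploid arrays, stellate markers at 814 to 849 and 751 to 841, and erythroid markers at 127 to 135 and 114 to 131. A lower mean was found for 6 of 10 macrophage and 5 of 8 stellate markers, and a higher mean for 2 of 2 erythroid markers. The lymphocyte marker Cd79a, the cholangiocyte marker Epcam and the stellate marker Pdgfrb were lower at an unadjusted limma p under 0.05, where 4.02% of all genes were lower. Markers among the dimmest 25% of probe sets were 1 of 10 endothelial (Pecam1), 2 of 10 macrophage (C1qb and Cd68), 2 of 8 stellate, 2 of 5 cholangiocyte, 4 of 7 lymphocyte (Ptprc, Cd3g, Cd79b and Nkg7) and 1 of 2 erythroid markers. The part of other cell types in the results below was not tested.

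At their brightest probe sets Asf1b, Nasp, Slbp and, by a narrow margin, Chaf1b had lower levels on every tetraploid array than on any diploid array, while Asf1a, the paralog of Asf1b, differed by less than its spread. The tetraploid level was lower by 29.3% for Asf1b, 21.4% for Nasp and 26.0% for Slbp. Rbbp7 differed little at its brightest probe set and was 9.82% lower at its other one, and the 3 probe sets of Rbbp4 did not move together. By limma with Benjamini-Hochberg adjustment over all 22626 probe sets, 0 of 13 members and 0 probe sets in all passed an adjusted p of 0.05, and the adjusted p of the members ran from 0.382 to 0.990. At an unadjusted limma p under 0.05, 4 of 13 were lower and 1 was higher in tetraploid cells, where 3.55% of all probe sets were lower and 3.35% higher. In the bulk RNA of a fraction, fewer cells that express a gene and less of its RNA per cell cannot be told apart.

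**Figure D1:**
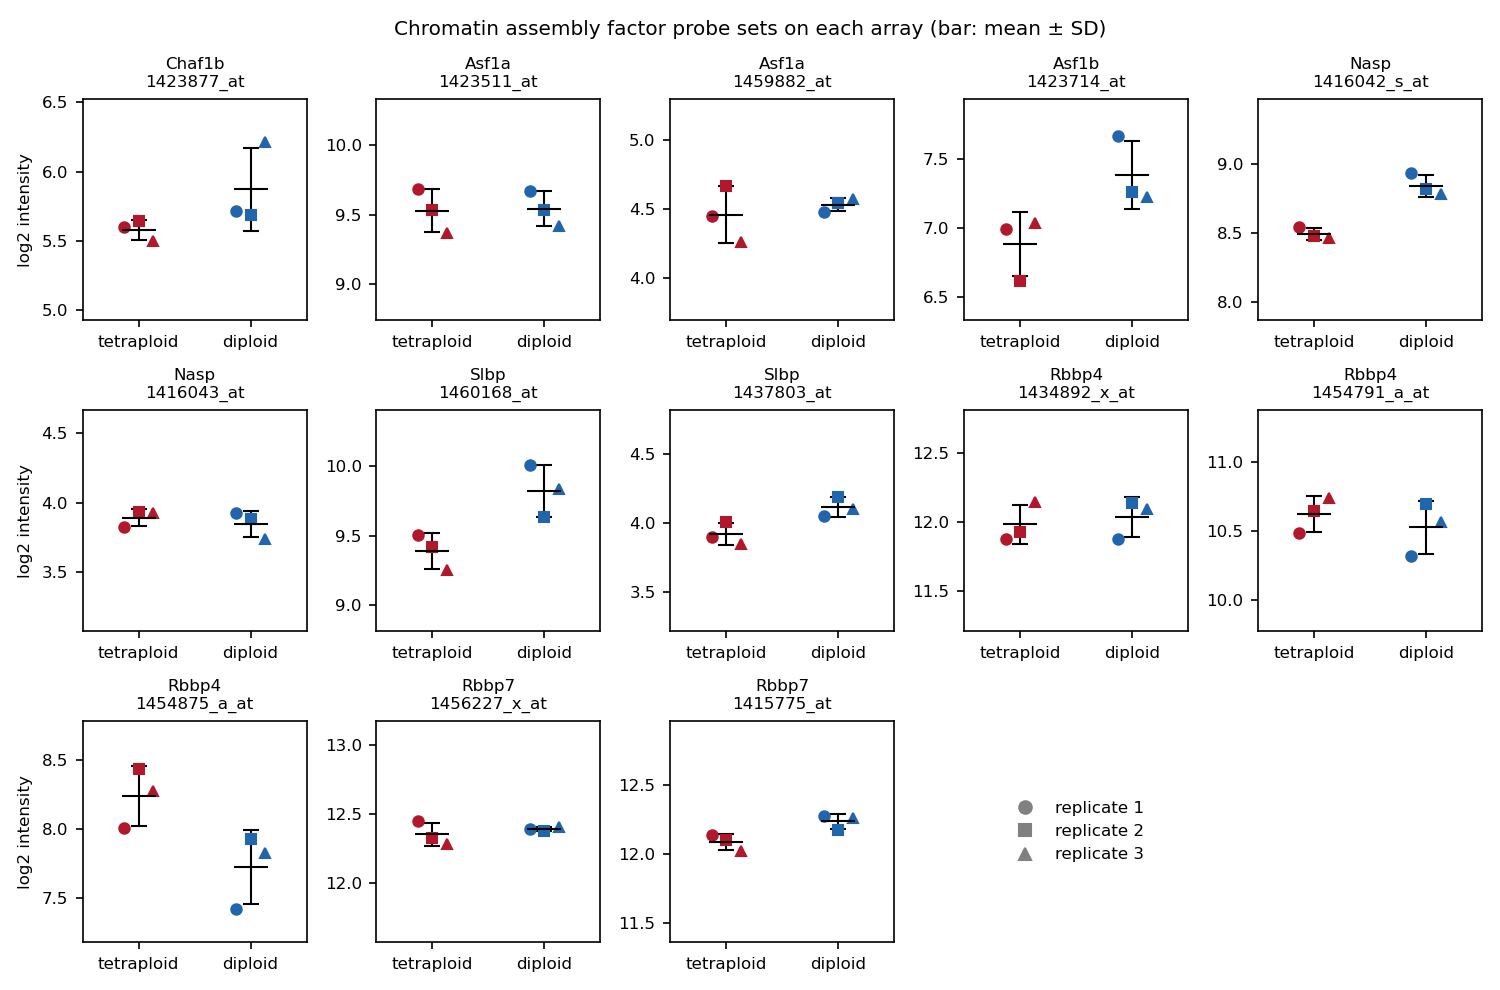
Log2 intensity of each of the 13 probe sets (y axis, all panels spanning the same log2 range) on the 3 tetraploid and 3 diploid arrays, with a symbol per replicate and the mean ± SD. The tetraploid points of Asf1b, Chaf1b, the brighter Nasp probe set, both Slbp probe sets and Rbbp7 1415775_at lie below all diploid points, and those of one Rbbp4 probe set lie above.

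Asf1b is the Asf1 paralog tied in mammalian cells to proliferation. Its probe set 1423714_at had intensities of 127, 98.2 and 131 on the tetraploid arrays, against 202, 153 and 150 on the diploid arrays. The fractions did not overlap, and diploid replicate 1 was the highest array. The mean log2 intensity was 6.88 ± 0.23 in tetraploid and 7.38 ± 0.24 in diploid cells (SD, n = 3 each), a log2 difference of -0.50 ± 0.15 (SE) with a 95% interval from -0.85 to -0.15 (limma, unadjusted p = 0.0104, adjusted p = 0.613). Without diploid replicate 1 the difference was -0.36.

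Asf1a, which serves H3 deposition both within and outside S phase, was measured by a bright and a dim probe set. The bright one, 1423511_at, had intensities of 822, 742 and 661 on the tetraploid arrays, against 816, 740 and 685 on the diploid arrays. The fractions overlapped throughout, and the log2 difference was -0.01 ± 0.11 (SE), with a 95% interval from -0.26 to 0.23. The dim one, 1459882_at, ran from 19.2 to 25.5 on the tetraploid arrays and from 22.3 to 23.8 on the diploid arrays, and differed by -0.07 ± 0.11. The log2 ratio of Asf1b to Asf1a on the same array compares the paralogs directly. It was -2.69, -2.92 and -2.33 on the tetraploid arrays and -2.01, -2.27 and -2.20 on the diploid arrays. The ratio was lower on all tetraploid arrays, by 0.49 on the log2 scale on average, which an exact two-sided permutation test gave p = 0.1, the smallest that 3 arrays against 3 allow (0.3 adjusted over 3 ratios).

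The 250 bases before the annotated gene start are shown for Asf1b and Slbp, whose fractions did not overlap, and for Asf1a, the paralog whose fractions overlapped. They are from RefSeq, build GRCm38.p6, on the strand of the gene. The Asf1b window is chr8:83955444-83955693 on the plus strand, the Asf1a window chr10:53596711-53596960 on the plus strand, and the Slbp window chr5:33652575-33652824 on the minus strand. Capitals mark 3 motifs on either strand: CCAAT, the box bound by NF-Y, the cell cycle element CHR (TTTGAA or TTCGAA), and E2F sites (TTCCCGC or TTGGCGC or TTCGCGC or TTGCCGC).
Asf1b: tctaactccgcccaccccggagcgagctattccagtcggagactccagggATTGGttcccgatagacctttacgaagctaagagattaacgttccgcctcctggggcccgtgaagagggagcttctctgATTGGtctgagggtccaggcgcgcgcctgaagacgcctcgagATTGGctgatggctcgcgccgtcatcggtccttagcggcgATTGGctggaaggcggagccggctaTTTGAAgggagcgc
Asf1a: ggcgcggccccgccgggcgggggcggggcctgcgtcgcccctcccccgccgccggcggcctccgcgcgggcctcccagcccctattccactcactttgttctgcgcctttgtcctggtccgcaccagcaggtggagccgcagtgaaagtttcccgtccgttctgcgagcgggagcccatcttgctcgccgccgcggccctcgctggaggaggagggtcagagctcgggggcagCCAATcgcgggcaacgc
Slbp: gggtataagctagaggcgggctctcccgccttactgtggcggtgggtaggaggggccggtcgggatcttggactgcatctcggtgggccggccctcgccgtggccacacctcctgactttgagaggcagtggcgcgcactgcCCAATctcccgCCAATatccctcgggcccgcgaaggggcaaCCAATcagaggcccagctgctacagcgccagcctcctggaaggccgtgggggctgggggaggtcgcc

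The Asf1b window held CCAAT at 4 positions, all on the minus strand, and a CHR match 14 bases before the gene start. The Asf1a window held CCAAT once, 17 bases before the start, and neither other motif. The Slbp window held CCAAT at 3 positions between 108 and 63 bases before the start. The Nasp window, chr4:116627952-116628201 on the minus strand, held CCAAT at 2 positions and CHR once, and lies inside the gene as RefSeq bounds it, whose outermost base is 116628676. Chaf1b had an E2F match and no CCAAT, Rbbp4 had CCAAT and a pair of E2F matches that overlap each other, and Rbbp7 had CCAAT alone. Chaf1a, which had no probe set, had E2F at 2 positions and CCAAT once. Matches to different motifs did not overlap in the 8 windows. Over 27025 RefSeq promoters of the same length, 34.5% held CCAAT, 17.4% CHR and 7.97% E2F, compared with 7, 2 and 3 of the 8 windows. A match is a description of letters, not a binding site.

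**Figure D2:**
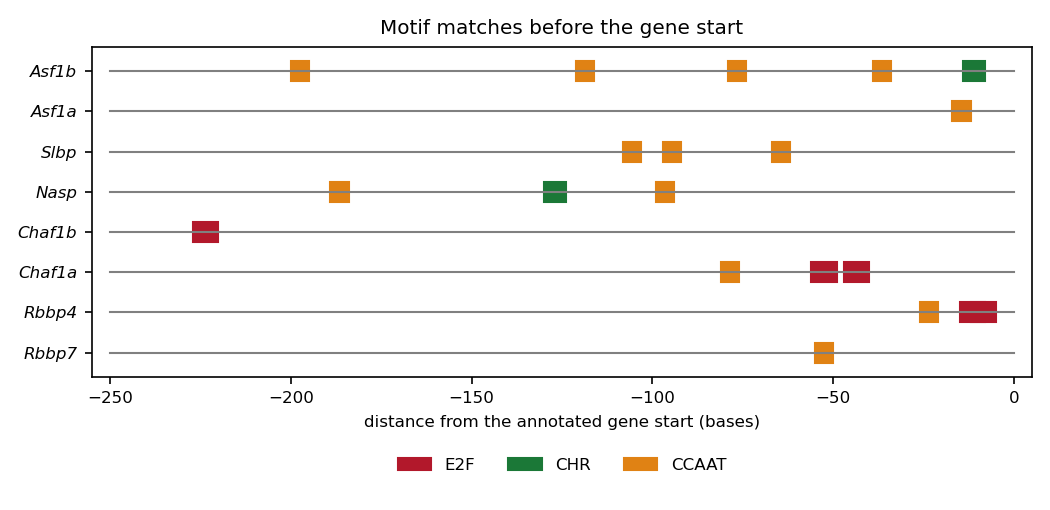
Positions of the motif matches in the 250 bases before the annotated start of each of the 8 genes (x axis, distance from the start in bases, coloured by motif). Asf1b carries CCAAT at 4 positions and CHR once, and Asf1a carries CCAAT once.

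Nasp, which shields H3-H4 from degradation and keeps a reserve of soluble histones, had the smallest unadjusted p among the members. Its bright probe set, 1416042_s_at, had intensities of 373, 356 and 353 on the tetraploid arrays, against 488, 450 and 439 on the diploid arrays. The arrays of each fraction lay close together and the fractions were well apart. The log2 difference was -0.35 ± 0.08 (SE, n = 3 each), with a 95% interval from -0.53 to -0.17 (limma, unadjusted p = 0.00213, adjusted p = 0.382). The suffix of this probe set marks probes that can match transcripts of more than one gene. The other one, 1416043_at, had intensities from 14.1 to 15.3 on the tetraploid arrays and from 13.4 to 15.2 on the diploid arrays, among the dimmest 25% of all probe sets. It differed by 0.04 ± 0.08, and whether its low brightness hides a difference was not tested.

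Slbp was lower on the tetraploid arrays at both of its probe sets. The bright one, 1460168_at, had intensities of 726, 683 and 609 on the tetraploid arrays, against 1030, 794 and 912 on the diploid arrays. The fractions did not overlap, and diploid replicate 1 was again the highest array. The log2 difference was -0.43 ± 0.12 (SE, n = 3 each), with a 95% interval from -0.70 to -0.17 (limma, unadjusted p = 0.00514, adjusted p = 0.518). The dim one, 1437803_at, was at 15.0, 16.1 and 14.5 on the tetraploid arrays and 16.6, 18.3 and 17.2 on the diploid arrays. These values also did not overlap, and differed by -0.19 ± 0.08 (limma, unadjusted p = 0.0452, adjusted p = 0.723). The unadjusted limma p of this dim probe set was under 0.05 in 4 of 12 alternatives, and with 16 added to every intensity its difference was -0.10.

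Chaf1b, the CAF-1 subunit that carries H3-H4 together with the large subunit, was the only measured CAF-1 subunit specific to that complex. Its probe set 1423877_at had intensities of 48.4, 49.9 and 45.1 on the tetraploid arrays, against 52.5, 51.4 and 74.4 on the diploid arrays. The fractions did not overlap, but 2 diploid arrays lay just above the tetraploid ones and diploid replicate 3 stood far above. The log2 difference was -0.29 ± 0.14 (SE, n = 3 each), with a 95% interval from -0.62 to 0.03 (limma, unadjusted p = 0.0717, adjusted p = 0.750), and -0.12 without diploid replicate 3.

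Rbbp4 was measured by 3 probe sets that disagreed. The brightest, 1434892_x_at, had intensities of 3758, 3902 and 4520 on the tetraploid arrays, against 3757, 4516 and 4371 on the diploid arrays, a log2 difference of -0.05 ± 0.11. The middle one, 1454791_a_at, was at 1430, 1600 and 1707 on the tetraploid arrays, against 1274, 1658 and 1513 on the diploid arrays, a difference of 0.10 ± 0.12 (SE, n = 3 each). In both the fractions overlapped. The dimmest, 1454875_a_at, was at 257, 345 and 310 on the tetraploid arrays, against 171, 243 and 227 on the diploid arrays. Every tetraploid array lay above every diploid array there, and the difference was 0.51 ± 0.15, with a 95% interval from 0.16 to 0.87 (limma, unadjusted p = 0.00990, adjusted p = 0.613). Diploid replicate 1 was the lowest array for all 3 probe sets, and without it the last difference was 0.36. The position of these probe sets on the transcripts of Rbbp4 was not analysed here, and the suffix of the brightest marks probes that can match unrelated transcripts.

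Rbbp7, the close relative of Rbbp4 that also binds the acetyltransferase Hat1, was bright at both probe sets. The brighter, 1456227_x_at, had intensities of 5583, 5153 and 4983 on the tetraploid arrays, against 5378, 5327 and 5435 on the diploid arrays. These overlapped, and differed by -0.04 ± 0.08 (SE). The suffix of this probe set, like that of the brightest of Rbbp4, marks probes that can match unrelated transcripts. Both probe sets enter the ratio of Rbbp7 to Rbbp4. The other Rbbp7 probe set, 1415775_at, was at 4507, 4391 and 4157 on the tetraploid arrays and 4957, 4617 and 4902 on the diploid arrays. It did not overlap and differed by -0.15 ± 0.08, a 9.82% lower level, with a 95% interval from -0.33 to 0.03 (limma, unadjusted p = 0.0898, adjusted p = 0.777). The log2 ratio of Rbbp7 to Rbbp4 on the same array averaged 0.37 ± 0.22 on tetraploid and 0.36 ± 0.14 on diploid arrays (SD, n = 3 each; exact permutation p = 1.0). That of Chaf1b to Rbbp4 averaged -6.41 ± 0.21 and -6.17 ± 0.29 (exact permutation p = 0.4, 0.6 adjusted over 3 ratios).

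**Figure D3:**
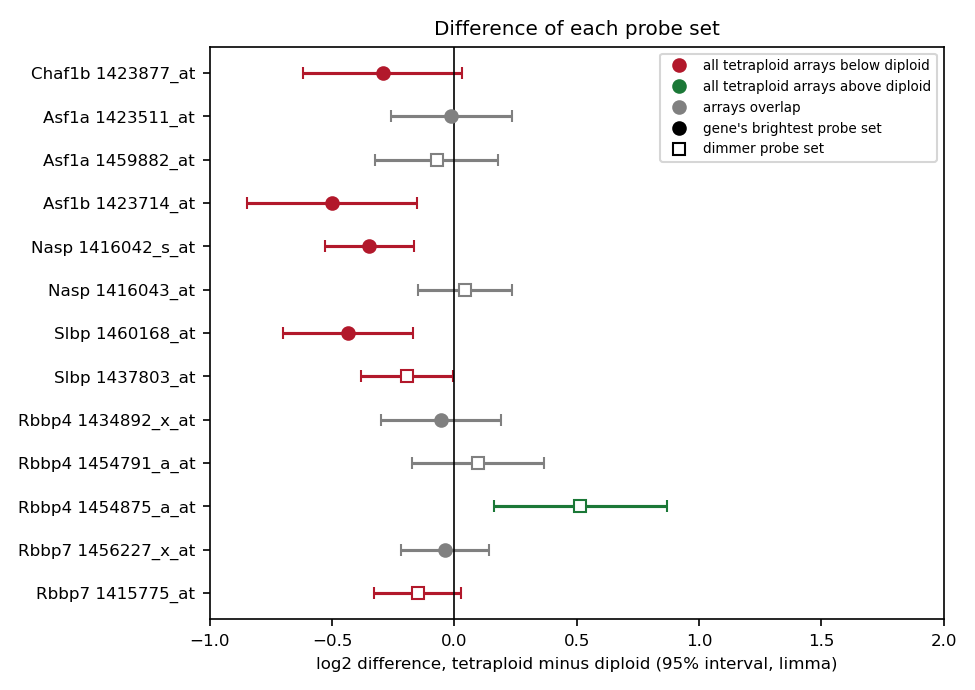
Log2 difference, tetraploid minus diploid, of each of the 13 probe sets with its 95% interval from limma (x axis), filled circles for the brightest probe set of a gene and open squares for the others. The intervals of Asf1b, of Nasp 1416042_s_at and of both Slbp probe sets lie below 0, and that of Rbbp4 1454875_a_at lies above 0.

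Over the 13 probe sets, 10 had a lower and 3 a higher mean in the tetraploid fraction, compared with 51.9% lower over all probe sets. The median log2 difference of the members was -0.07, against -0.006 over all probe sets. The fractions did not overlap for 6 probe sets that were lower and 1 that was higher, where 6.77% of all probe sets were separated as lower and 5.95% as higher. With only the brightest probe set of each gene, 7 of 7 genes had a lower mean, with a median of -0.29, and 3 had an unadjusted limma p under 0.05. Of the 7, Asf1a, Rbbp7 and Rbbp4 differed by only -0.01, -0.04 and -0.05, and the dimmer probe sets of Rbbp4 had higher means. Over all genes at their brightest probe set 55.5% had a lower mean and the median was -0.02. At an unadjusted p under 0.05, 4.02% of them were lower and 1.84% higher, and 0 of 7 members were higher. The fractions did not overlap for 4 of 7 members that were lower and 0 that were higher, where 7.43% of all genes were separated as lower and 4.37% as higher. Probe sets of a gene share its transcripts and are not independent. Tetraploid replicate 3 was the lowest of the 6 arrays for 8 of the 13 probe sets. Diploid replicate 1 was the lowest for 3 and the highest for 4. The same counts were not made over all probe sets, so whether these arrays stand out in general was not tested.

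The genes with the nearest array profile were found by the root mean square difference between centred log2 values over the 6 arrays, among 9295 genes. For Asf1b these were Tipin, Skp2 and Gart, at a distance of 0.101 to 0.108, where the profile of Asf1b itself had a root mean square of 0.316. For Nasp they were Pold3, Smyd2 and Gfi1b, at 0.0385 to 0.0440 with a root mean square of 0.182 for Nasp. For Slbp they were Brca2, Pspn and Rfc2, at 0.0440 to 0.0649, against 0.254 for Slbp. The log2 differences of these 9 genes lay between -0.53 for Tipin and -0.31 for Gfi1b. The profiles include the difference between the fractions, so neighbours of any member resemble it in this by selection. For Chaf1b the nearest were Peg3, Satb1 and Nup133, at 0.0970 to 0.1, against 0.231 for Chaf1b. The nearest to Asf1a were Pea15a, Cebpa and Madd, to Rbbp4 4833439L19Rik, Slc15a4 and Bcap31, and to Rbbp7 Mrpl51, Tfb1m and Nme2, all with log2 differences between -0.05 and 0.02.

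Of 9 measured partners of the H3-H4 chaperones at the fork, 6 had a lower mean in tetraploid cells, with a median log2 difference of -0.49, and 5 were lower at an unadjusted limma p under 0.05 while 0 passed after adjustment. Over all genes 55.5% had a lower mean and 4.02% were lower at that p. Pcna, the sliding clamp that tethers CAF-1, had intensities of 3264, 2984 and 2407 on the tetraploid arrays, against 6442, 4117 and 5057 on the diploid arrays, and differed by -0.84 ± 0.17 (SE). Hat1, which acetylates new H4 with Rbbp7, had intensities of 629, 590 and 466 on the tetraploid arrays, against 941, 729 and 870 on the diploid arrays, and differed by -0.60 ± 0.14. Neither overlapped. Mms22l, which acts with a reader of new histones at damaged forks, differed by -0.78 ± 0.17, Mcm2, the helicase subunit that binds old H3-H4, by -0.72 ± 0.15 and by -1.26 at a second probe set, and Dnajc9, a histone chaperone of the heat shock protein family, by -0.49 ± 0.10. The other 4 measured genes, Ddb1, Tlk2, Ipo4 and Cul4b, differed by -0.13 to 0.12 at their brightest probe sets, and the others of Tlk2 by -0.14 to 0.37 and of Cul4b by 0.18.

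Of 8 measured heterochromatin partners of CAF-1, 2 were lower at an unadjusted limma p under 0.05, Uhrf1 at -1.55 ± 0.18 and Dnmt1, the maintenance DNA methyltransferase, at -0.36 ± 0.14, and 0 passed after adjustment. Second probe sets differed by -0.62 for Uhrf1 and -0.65 for Dnmt1. Atf7ip and Cbx1, which serve histone H3 lysine methylation and its recognition, differed by 0.18 ± 0.10 and 0.16 ± 0.10, neither with an unadjusted limma p under 0.05, and the other probe sets of Cbx1 by -0.07 to 0.09. By brightest probe sets the list had 5 lower and 3 higher means and a median of -0.05.

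Chaperones of H3.3 deposition, of H2A-H2B or of broad use had small differences at the brightest probe set of each gene. Of 4 measured genes of H3.3 deposition, 2 had a lower and 2 a higher mean, with Ubn1 at -0.14 ± 0.12, Hira at -0.08 ± 0.08, Atrx at 0.07 ± 0.12 and Daxx at 0.02 ± 0.11 (SE). Of 8 measured chaperones of H2A-H2B or of broad use, 6 had a lower mean and 0 an unadjusted limma p under 0.05, with a median of -0.08. Among them Anp32b differed by -0.12 ± 0.08, Supt16, a subunit of FACT, by -0.14 ± 0.09, Nap1l4 by -0.10 ± 0.07 and Anp32e, which removes the variant H2A.Z, by -0.13 ± 0.10. A second, dimmer probe set of Supt16 differed by 0.51, and the others of Atrx by 0.09 to 0.42.

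Among 8 measured genes that transcribe or process histone mRNA alongside Slbp, 1 was lower at an unadjusted limma p under 0.05. This was Eri1, an exonuclease that trims histone mRNA at its stem-loop, at -0.26 ± 0.11, and its second probe set also differed by -0.26. Ncbp1, a cap-binding subunit, differed by -0.17 ± 0.11, Lsm10 of the U7 particle by -0.14 ± 0.13, and Cpsf2 of the cleavage complex by 0.11 ± 0.11, and the median was -0.03. Of 7 replication-dependent histone genes, 5 had a higher mean, 2 a lower mean and 0 an unadjusted limma p under 0.05. H1f2 differed by 0.25 ± 0.16, H2ac19 by -0.15 ± 0.09, H1f4 by 0.09 ± 0.08 and H2bc22 by 0.08 ± 0.09. Dimmer probe sets of H1f2 differed by 0.37 and 0.20, and that of H2ac19 by -0.09. Of these 7 genes, 4 were among the dimmest 25% of probe sets, histone genes have near-identical copies that can share probes, and how the cRNA was primed is not given in the labels. Of 5 histone variant genes 5 had a lower mean at the brightest probe set, by at most 0.11 on the log2 scale, with H1f10 at -0.07 ± 0.08, H2ax at -0.11 ± 0.12, H2az2 at -0.10 ± 0.15 and H2az1 at -0.06 ± 0.13, while a second probe set of H2az1 differed by 0.08.

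Other partners of Rbbp4 and Rbbp7 in Polycomb, NuRD, Sin3 and DREAM complexes were spread evenly. Of 16 measured genes 7 had a lower and 9 a higher mean, with a median of 0.01, and 1 was lower at an unadjusted limma p under 0.05. This was Ezh2, the Polycomb methyltransferase, at -0.27 ± 0.09, whose tetraploid intensities of 219, 196 and 195 lay below the diploid intensities of 260, 239 and 234. Lin37 of DREAM differed by 0.26 ± 0.13, Suz12, a partner of Ezh2, by -0.11 ± 0.08, with its other probe sets at -0.14 to 0.09, and the deacetylase Hdac2 by 0.16 ± 0.12. Of the CENP-A deposition genes 2 were measured. Mis18a, which prepares centromeres for CENP-A, differed by -0.31 ± 0.14 (limma, unadjusted p = 0.0483, adjusted p = 0.723), and Cenpa itself by 0.29 ± 0.22. By brightest probe sets, 0 of the 67 measured genes on all 9 related lists passed an adjusted p of 0.05 by limma. At an unadjusted p under 0.05, 10 were lower and 0 higher, where 4.02% of all genes were lower and 1.84% higher. Dimmer probe sets were examined at that p only for the genes of these lists that are named above. A dimmer probe set each of Tlk2, Atrx, Supt16 and Cul4b was higher. One each of Mcm2, Uhrf1, Dnmt1 and Eri1 was lower. No probe set with their symbol alone was found for 20 listed genes.

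**Figure D4:**
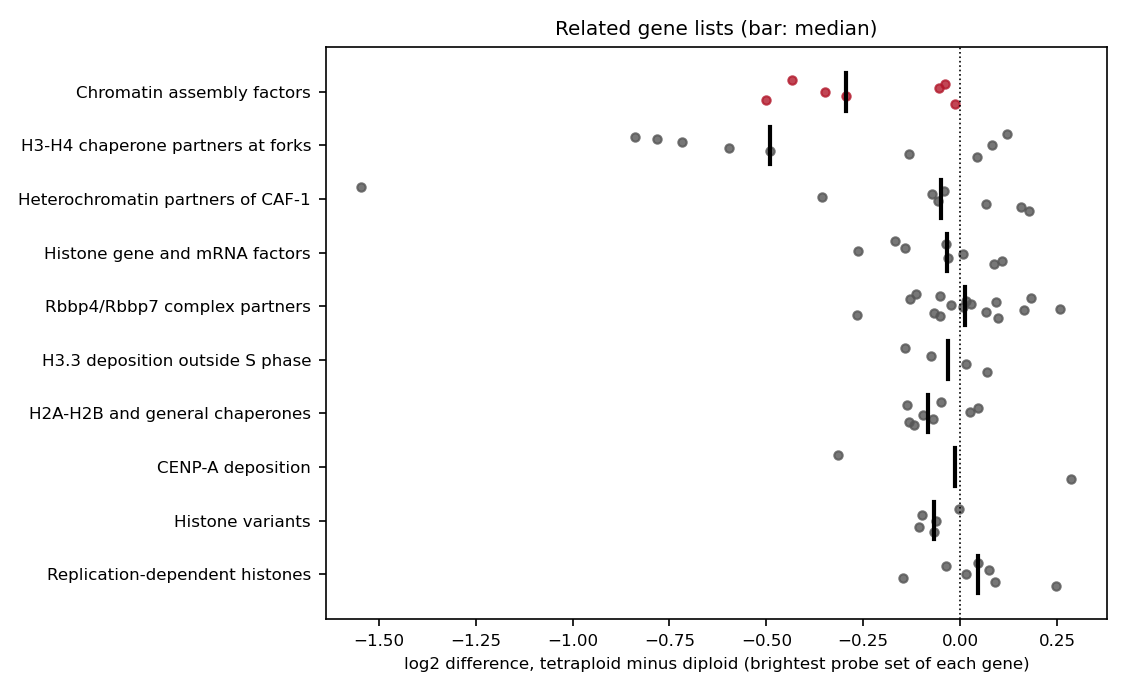
Log2 difference, tetraploid minus diploid, of the brightest probe set of each gene (x axis), for the chromatin assembly factors in red and 9 related lists in grey, with the median of each list as a bar. The medians are -0.29 for the assembly factors and -0.49 for the chaperone partners at forks, and between -0.08 and 0.05 for the other lists.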

How the data were processed

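Per the labels' protocols, RNA was taken up in Trizol and labelled as biotinylated cRNA for Affymetrix arrays. The values deposited by the authors are linear intensities, 1 for each probe set and array, and the submitters' processing notes name RMA, which equalises the arrays. A difference in total RNA per cell between the fractions is therefore removed, and depth is not defined for arrays, whose number limits the precision. No source used here gives the software, its version or a further filter.

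Intensities were converted to log2 and 64 of 22690 probe sets, all controls, were left out. The annotation gave 1 symbol to 20380 probe sets, several to 691 and none to 1555, and only the first kind was named. No filter on dim probe sets was used, so that every member was tested. Of the 13 members, 10 lay above the 25th percentile of mean log2 intensity (4.82). Tetraploid and diploid arrays were compared with limma 3.58.1 in R 4.3.3 (lmFit, eBayes, two-sided, ploidy as the single factor) over all 22626 probe sets. Differences are tetraploid minus diploid with the SE of the fit. The procedure was tested in 20 simulated runs with 200 changed probe sets each and independent noise. Of the probe sets called there, 6.76% were false. The changes put into these runs were all larger than the difference of any member, so detection of changes of the members' size was not tested. The members and lists were chosen with earlier results of these data known. Named genes are the members, the 4 genes of each list with the smallest unadjusted p, and the 3 nearest profiles of each member. Other genes of the fork list were named after their values were seen. Ratios within an array used the brightest probe set of each gene. The ratio of Chaf1a to Rbbp4, which was planned, was not made. The alternatives were other normalizations, filters, an added offset of 16, array weights, another variance prior, a replicate block and each array left out.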

Additional observations from a re-analysis of the deposited data

How the results depend on the processing

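Under 14 alternatives, 8 of them other settings and 6 that left out an array, 0 of 173 member differences passed an adjusted p of 0.05, and 6 had the opposite sign. These were at probe sets with a difference near 0: Asf1a 1423511_at was at 0.012 with array weights and between -0.090 and 0.067 when an array was left out, Asf1a 1459882_at between -0.18 and 0.026, Nasp 1416043_at between -0.0087 and 0.082, and Rbbp4 1454791_a_at between -0.0087 and 0.18. Asf1b, Nasp 1416042_s_at, Slbp 1460168_at and Rbbp4 1454875_a_at kept their sign and an unadjusted limma p under 0.05 in all alternatives that included them, at -0.58 to -0.36, -0.38 to -0.30, -0.53 to -0.34 and 0.36 to 0.63. Between 3 and 5 members were lower at that p. The log2 ratio of Rbbp7 to Rbbp4 was between -0.086 and 0.13 when an array was left out, that of Asf1b to Asf1a between -0.64 and -0.35, and that of Chaf1b to Rbbp4 between -0.39 and -0.10. The count of all probe sets past an adjusted p of 0.05 by limma, 0 on all arrays with 1561 at an unadjusted p under 0.05, was between 0 and 1 when an array was left out, with 1 without tetraploid replicate 1. With the replicate number as a block it was 10, of which 0 were members, and 3 members were lower at the unadjusted p. Arrays with the same number deviated from their fraction means with correlations of 0.444, -0.146 and -0.158. Between different numbers the correlations ran from -0.441 to 0.559, the highest for tetraploid replicate 2 with diploid replicate 3. With 3 arrays in each fraction, these values cannot tell whether the samples were paired. Signal near background limits the 3 members in the dimmest 25% of probe sets.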
